A study of Rattus norvegicus with 32 samples.

Results

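The presynaptic active zone scaffolds described here were 9 genes: Pclo, Bsn, Rims1, Rims2, Unc13a, Erc1, Erc2, Ppfia2 and Ppfia3. They were chosen by symbol, and each was found once among the 32883 genes of the male and of the female count table. Hippocampal RNA was sequenced from Sprague-Dawley rats aged 65 days, with 4 rats in each of 4 diet groups per sex. Animals reared with enough iron formed the IS control group, and ISch rats differed from them in that their dams received choline during pregnancy. FID rats had been iron-deficient in early life, and FIDch rats had both the early iron deficiency and the prenatal choline. The diet labels of both sexes write FID and FIDch as ID and IDch, FID being the form in the male library names, and the study's methods state that iron-deficient dams returned to an iron-sufficient diet soon after birth, so all groups were iron-repleted when the tissue was taken. The study's methods took a single male per litter for each experiment. The RNA data came from an earlier study, for which the sources used here do not restate this. The litters of the females are not given. P-values thus measure only the spread between these samples, some of which may share a litter. The labels place the males in sequencing batch I and the females in batch II, with different RNA isolation kits, so sex cannot be told apart from batch and kit.

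The active zone is the patch of presynaptic membrane where synaptic vesicles dock and fuse. Piccolo and Bassoon, the giant proteins encoded by Pclo and Bsn, hold the vesicle cluster at this site. RIM proteins tether vesicles through Rab3 and recruit calcium channels, Munc13 proteins ready docked vesicles for fusion, ELKS proteins bind RIM and Bassoon, and liprin-α proteins link the scaffold to receptor tyrosine phosphatases and motor proteins. In the hippocampus these proteins set transmitter release at excitatory and inhibitory synapses.

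Of the 9 scaffolds, Rims1 differed between diets most clearly, and it did so in females. Rims1 was 19.0% lower in female ISch than in IS (adjusted p = 0.0103, edgeR's quasi-likelihood test). In female FIDch it was 21.4% lower than in FID, but this did not pass the correction (adjusted p = 0.113, same test). Without FIDch replicate 4 this latter difference was smaller, at a log2 fold change of -0.23, but its adjusted p was then 0.0152 (same test). With the level of long mRNAs as a covariate the FIDch against FID difference fell under the fold change of the study's criterion. Rims1 did not differ beyond replicate spread between female FID and IS. In males the scaffolds at the study's criterion were Pclo and Rims1, both higher in ISch than in IS, with overlapping groups and with neither call kept without the ISch rats whose libraries are named in another form. Early-life iron deficiency alone brought 0 of 9 scaffolds to the criterion in either sex, beside 4.62% of all genes in males and 6.47% in females. In both sexes the library-to-library spread of Pclo and Bsn was larger than that of nearly all genes of like level. Their SD was larger in males than in females.

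Between 3515806 and 9517503 reads were counted per male library and between 18439999 and 26616318 per female library. Values are given as normalized counts, which are counts scaled by TMM to a common library size within a sex, so levels are not comparable between the sexes, nor between genes, whose lengths were not taken into account. Counting noise alone gave coefficients of variation of at most 5.89% for a scaffold in any group. The markers of neurons, astrocytes, oligodendrocytes, microglia and endothelium were detected in every library, and of the 6 hippocampal field markers only Fibcd1 was at 0 in some libraries. Summed markers of neurons ranged from 10427 to 11670.3 CPM (counts scaled to a fixed library total) in males and from 9974 to 12061 CPM in females. The choroid plexus markers stood at 391 CPM in male FID replicate 4 and at 18.4 CPM or less in all other libraries. In bulk tissue, fewer cells of a type and less RNA per cell cannot be told apart.

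RefSeq promoter sequences of the GRCr8 build, from 250 bases before to 50 after the gene's start, were matched for 7 of the 9 genes, Rims2 and Ppfia2 being the others. Those of Rims1, the gene with the clearest diet difference, and of Pclo and Bsn, which varied together between libraries, are printed below from 5′ to 3′ on the gene's own strand. Capitals mark the GC box GGGCGG on either strand, to which Sp1 and KLF factors are known to bind, and in Bsn also the NRF1 core, which is GCGC, any base and then TGCGC.
Rims1, chr9:32692723-32693022, minus strand: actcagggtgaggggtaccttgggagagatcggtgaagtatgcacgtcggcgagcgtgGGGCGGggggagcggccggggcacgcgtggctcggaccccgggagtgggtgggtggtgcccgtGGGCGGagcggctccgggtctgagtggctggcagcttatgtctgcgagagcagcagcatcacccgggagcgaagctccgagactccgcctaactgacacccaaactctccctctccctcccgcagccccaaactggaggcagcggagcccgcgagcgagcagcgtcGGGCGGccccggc
Pclo, chr4:21005062-21005361, minus strand: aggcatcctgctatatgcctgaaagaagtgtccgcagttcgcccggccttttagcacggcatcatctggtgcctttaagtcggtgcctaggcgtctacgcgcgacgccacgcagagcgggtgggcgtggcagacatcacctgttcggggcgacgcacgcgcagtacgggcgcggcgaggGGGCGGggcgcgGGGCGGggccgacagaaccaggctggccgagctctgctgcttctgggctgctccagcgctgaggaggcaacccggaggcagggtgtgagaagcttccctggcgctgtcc
Bsn, chr8:117754363-117754662, minus strand: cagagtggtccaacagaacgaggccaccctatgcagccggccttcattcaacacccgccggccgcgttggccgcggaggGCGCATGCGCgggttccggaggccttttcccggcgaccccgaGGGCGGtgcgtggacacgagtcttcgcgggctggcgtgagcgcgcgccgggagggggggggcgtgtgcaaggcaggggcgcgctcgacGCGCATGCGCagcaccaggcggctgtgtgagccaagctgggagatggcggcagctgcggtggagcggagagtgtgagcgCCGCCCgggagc
The GC box was found 3 times in the Rims1 promoter and 2 times in each of the other printed promoters. It was present in 7 of the 7 matched promoters, beside 33.1% of the 33469 RefSeq promoters of this length. The NRF1 core was present in Bsn alone, beside 4.25% of all promoters. The cyclic AMP response element TGACGTCA was in 0 of the 7, beside 1.83% of all promoters. These 3 promoters were rich in G and C, at 70.7% in Rims1, 67.7% in Pclo and 73.0% in Bsn. A match in these letters is a description of the window and not a measured binding site.

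Differences were tested with edgeR's quasi-likelihood test for each pair of groups. A gene was counted as called when its log2 fold change exceeded 0.2 in size and its unadjusted p was under 0.05, which is the criterion of the study, and adjusted p-values are Benjamini-Hochberg values over all genes tested. The exact permutation test of 4 against 4 libraries, 2-sided, cannot give a p below 0.0286. A positive log2 fold change means higher in the group named first.

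Pclo encodes Piccolo. In male IS rats Pclo stood at 1013, 1359, 2190.1 and 1401 normalized counts, and in male ISch rats at 2574, 2351, 1733 and 1731. ISch was higher on average, but the IS rat at 2190.1 lay above the lower ISch pair. The means were 1491 ± 498 in IS and 2097 ± 432 in ISch (SD, n = 4). Pclo met the criterion in this comparison at a log2 fold change of 0.49 ± 0.20 (SE), a change of 40.9%, with an adjusted p of 0.448 by edgeR's quasi-likelihood test and an exact permutation p of 0.143. The call was lost, at 0.35 to 0.46, without any 1 of IS replicates 1, 2 and 4 or ISch replicates 1 and 2. Without both of these ISch rats, whose library names have another form than the rest, the difference was 0.21. Male FID rats stood at 1621, 815, 1872 and 2182, and male FIDch rats at 1397, 2669, 1025 and 2538. Both groups spanned most of the male range, since the highest rat was 2.68 times the lowest in FID and 2.60 times in FIDch. Against IS the log2 fold changes were 0.12 ± 0.27 in FID and 0.35 ± 0.28 in FIDch, and FIDch against FID gave 0.21 ± 0.30.

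In females Pclo was steadier. IS rats stood at 9673, 10373, 7707 and 10548 normalized counts, ISch rats at 10389, 8053, 10369 and 8202, and FID rats at 10034, 10711, 8401 and 10172. These 3 groups overlapped throughout. FIDch rats stood at 8575, 8607, 9263 and 5461, so that replicate 4 was far below every other female. FIDch against FID gave a log2 fold change of -0.31 ± 0.14 (adjusted p = 0.282 by edgeR's quasi-likelihood test), which fell just outside the criterion at an unadjusted p of 0.0525, and without FIDch replicate 4 it was -0.16.

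Bsn encodes Bassoon. In males it stood at 3513, 3446, 4906 and 3749 normalized counts in IS, at 5463, 5137, 3729 and 3982 in ISch, at 4065, 2158, 4437 and 4301 in FID and at 3637, 5989, 3258 and 5196 in FIDch. The rats that were high or low in Pclo were mostly the same in Bsn, with FID replicate 2 lowest and FIDch replicate 2 highest in both genes. The ISch against IS difference was 0.23 ± 0.13 on the log2 scale and overlapped (adjusted p = 0.561, edgeR's quasi-likelihood test). It was -0.02 without the ISch rats whose library names have another form. FIDch against FID gave 0.26 ± 0.22 and FIDch against IS 0.21 ± 0.17, with overlapping groups. In females Bsn ranged from 16594 to 21884 in IS, from 15658 to 20684 in ISch, from 18408 to 21298 in FID and from 11091 to 18635 in FIDch. The log2 fold changes were -0.16 ± 0.10 for ISch against IS, -0.28 ± 0.15 for FIDch against IS and -0.28 ± 0.13 for FIDch against FID, and none met the criterion. Without FIDch replicate 4 the last was -0.13.

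Rims1 encodes RIM1, the vesicle tether of the active zone. RefSeq of GRCr8 lists an uncharacterised locus that overlaps it, whose reads cannot be told apart from those of Rims1 where the counting did not use strand. In females it stood at 5939, 5937, 5608 and 5565 normalized counts in IS and at 4719.9, 4444, 4989 and 4544 in ISch. Every ISch rat lay below every IS rat. The means were 5762 ± 204 and 4674 ± 239 (SD, n = 4). The log2 fold change was -0.30 ± 0.046 (SE), so that Rims1 fell by 19.0%, with an adjusted p of 0.0103 by edgeR's quasi-likelihood test and an exact permutation p of 0.0286, the smallest this test can give. By p, Rims1 ranked 47 among 14466 genes. Leaving out each of the 8 rats in turn gave -0.33 to -0.28. The adjusted p was 0.0795 when all 4 female groups were fitted together. The summed microglia markers, of which 6 of 6 were detected in every library, also differed between these groups, at 213 to 223 CPM in IS and 206.9 to 226 in FID beside 182 to 206.7 in ISch and 190 to 197 in FIDch. Every choline-exposed female was thus below every other female in these markers, and their part in the Rims1 result was not tested.

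The formerly iron-deficient females showed a difference of like size from other animals. FID rats stood at 5656, 5840.2, 5686 and 6180.4 normalized counts of Rims1, and FIDch rats at 4778, 4891, 5275 and 3475. The groups did not overlap, with FIDch replicate 4 far below the other FIDch rats. FIDch against FID gave -0.35 ± 0.10 on the log2 scale (adjusted p = 0.113, edgeR's quasi-likelihood test), and FIDch against IS gave -0.32 ± 0.11 (adjusted p = 0.227), both with an exact permutation p of 0.0286. Without FIDch replicate 4 the differences were smaller at -0.23 and -0.21, and their adjusted p by edgeR's quasi-likelihood test were 0.0152 and 0.0438. FID against IS gave 0.02 ± 0.041, with overlapping groups. The iron by choline interaction in females was -0.04 ± 0.12, which did not differ from 0 beyond its error. ISch against IS and FIDch against FID share no library, whereas FIDch against IS uses the IS rats again.

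In males Rims1 stood at 1333, 1617, 1783 and 1653 normalized counts in IS and at 2075, 1969.7, 1668 and 1840.1 in ISch. ISch was higher on average, and the groups overlapped through ISch replicate 3. The log2 fold change was 0.24 ± 0.089, which met the criterion (adjusted p = 0.422 by edgeR's quasi-likelihood test, exact permutation p = 0.0571). It was 0.16 without IS replicate 1, 0.19 without ISch replicate 1 and 0.13 without both ISch replicates 1 and 2, and did not meet the criterion in any of these cases. FID rats stood at 1658, 1359.5, 1609.6 and 1697, and FIDch rats at 1551, 2057, 1618 and 1761. These groups overlapped with IS and with each other, at log2 fold changes of -0.02 ± 0.093 for FID against IS, 0.13 ± 0.099 for FIDch against IS and 0.13 ± 0.091 for FIDch against FID. Fitted in 1 model of the 16 libraries, the ISch against IS effect was 0.55 ± 0.11 higher in males than in females, with an adjusted p of 0.0159 by edgeR's quasi-likelihood test. Without male ISch replicates 1 and 2 this difference was 0.45 (adjusted p = 0.143). For FIDch against IS the male minus female difference in Rims1 was 0.45 ± 0.16 (adjusted p = 0.213).

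Rims2 encodes RIM2, the close relative of RIM1. In females it ranged from 1201 to 1449 normalized counts in IS, from 1221 to 1502 in ISch, from 1159 to 1447 in FID and from 954 to 1378 in FIDch, and in males from 295 to 473, from 414 to 465, from 409.9 to 454 and from 396 to 438. All groups overlapped within each sex. Its log2 fold change in female ISch against IS was -0.03 ± 0.076, beside -0.30 in Rims1, and the difference between these genes was not tested.

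Unc13a encodes Munc13-1, the main vesicle priming factor of glutamate synapses. In males it stood at 1657, 2001, 2459.7 and 2109 normalized counts in IS, at 2342, 2457, 2226 and 2247 in ISch, at 2444, 1644, 2375 and 2275 in FID and at 2409.7, 2569, 2013 and 2429 in FIDch. The means of the other 3 groups lay above that of IS, by 0.08 to 0.20 on the log2 scale, and all overlapped with it. In females Unc13a stood at 5633, 5689.6, 4624 and 6095 in IS and at 5147, 4963, 5187 and 3784 in FIDch, a log2 fold change of -0.21 ± 0.11 with overlapping groups. The FIDch against IS effect was 0.40 ± 0.17 higher in males than in females (adjusted p = 0.291, edgeR's quasi-likelihood test). It met the criterion, but not without any 1 of male IS replicate 1, male FIDch replicate 2, female IS replicate 4 or female FIDch replicate 4, at 0.31 to 0.36.

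The ELKS genes Erc1 and Erc2 met the criterion in no comparison. Erc1 ranged from 1067 to 1498 normalized counts over the 16 males and from 3304 to 4659.9 over the 16 females. Its log2 fold changes lay between -0.03 and 0.12 in the pairs of diet groups. Erc2 was the scaffold with the lowest counts, from 211 to 390.2 in males and from 579.5 to 1179.6 in females. Female ISch rats stood at 975, 826, 943 and 822, and female IS rats at 1000.4, 1076, 851 and 1179.6. The ISch rats were lower on average with overlap, at a log2 fold change of -0.21 ± 0.096 and an unadjusted p of 0.054 by edgeR's quasi-likelihood test (adjusted p = 0.316).

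The liprin-α genes had the smallest spread. Ppfia3, which encodes liprin-α3, stood in females at 4529, 4318, 4352 and 4473 normalized counts in IS, at 4158, 3893, 3994 and 4079 in ISch, at 4556, 4530.2, 4749.9 and 4878 in FID and at 4098, 4179.7, 4466 and 3631 in FIDch. FID lay wholly above IS, and ISch wholly below it. Every FIDch rat was below every FID rat. The log2 fold changes were 0.08 ± 0.038 for FID against IS, -0.13 ± 0.039 for ISch against IS and -0.20 ± 0.061 for FIDch against FID. Their adjusted p were 0.443, 0.108 and 0.122 by edgeR's quasi-likelihood test, each with an exact permutation p of 0.0286, and all were under the fold change of the criterion.

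In males Ppfia3 stood at 1668, 1533, 1558 and 1695 normalized counts in IS, at 1685, 1637, 1489.5 and 1511 in ISch, at 1459.9, 1454, 1511 and 1459 in FID and at 1734, 1586, 1576 and 1581 in FIDch. Here every FID rat lay below every IS rat and below every FIDch rat. FID against IS gave -0.14 ± 0.058 and FIDch against FID gave 0.13 ± 0.053 on the log2 scale, with adjusted p of 0.786 and 0.229 by edgeR's quasi-likelihood test. The FID against IS effect thus pointed down in males and up in females, a difference of -0.20 ± 0.064 that met the criterion by edgeR's interaction term but did not pass the correction (adjusted p = 0.427). It was -0.18 to -0.20 and no longer met it without any 1 of male IS replicate 4, female IS replicates 2 and 3 or female FID replicate 4.

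Ppfia2 encodes liprin-α2. In males it stood at 911, 1058, 1169 and 1144 normalized counts in IS and at 1128, 1184, 1267 and 1278 in ISch, with overlap and a log2 fold change of 0.18 ± 0.079. In females it ranged from 3005 to 3413 in IS, from 3333 to 3554 in ISch, from 2905 to 3432 in FID and from 3129 to 3528 in FIDch. Its log2 fold change in female ISch against IS was 0.09 ± 0.047, with overlap.

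**Figure D1:**
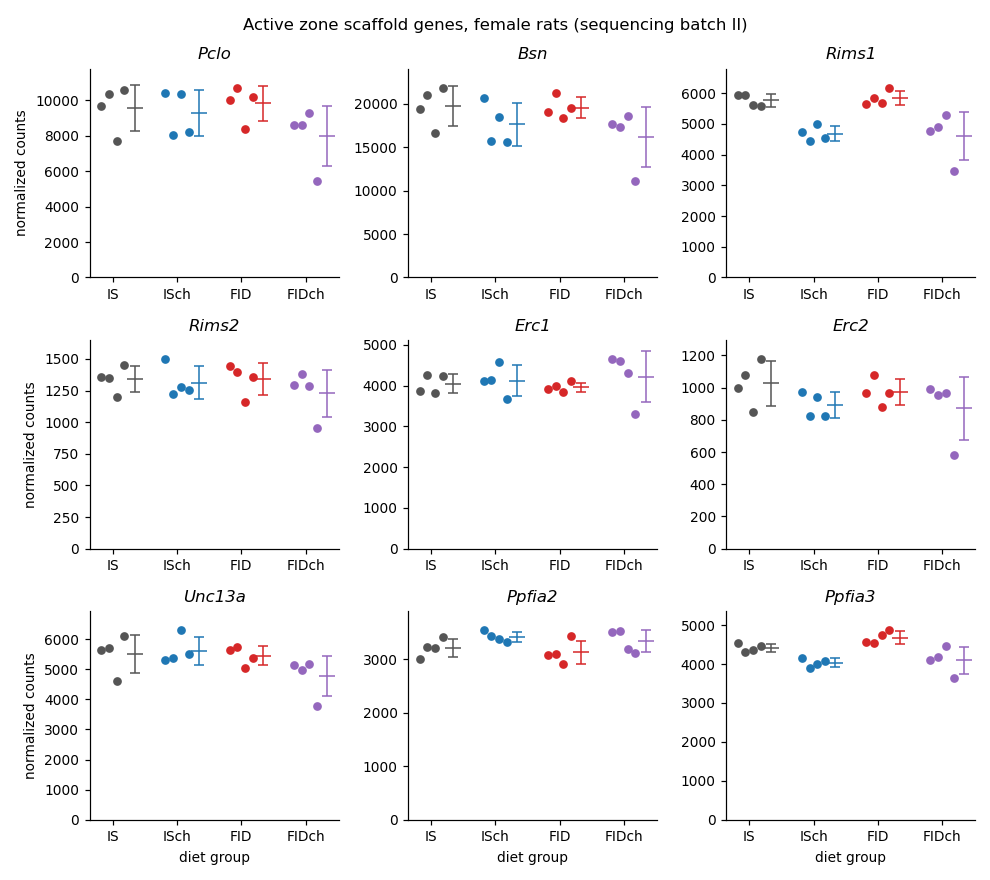
Normalized counts of the 9 scaffold genes (vertical axes, from 0) in female rats by diet group, with 1 point per rat and the mean ± SD of 4 rats beside the points. In the Rims1 panel the ISch rats, at 4444 to 4989, lie below the IS rats, at 5565 to 5939, and FIDch replicate 4 is the lowest point of most panels.

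**Figure D2:**
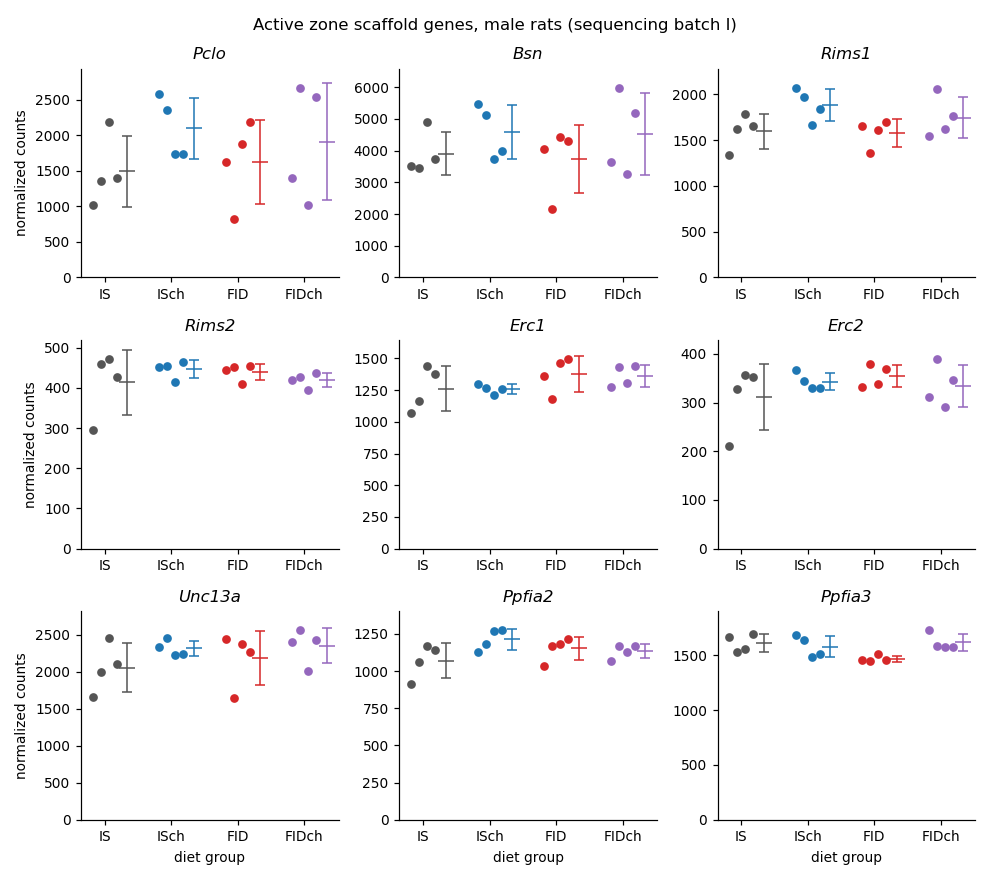
Normalized counts of the 9 scaffold genes (vertical axes, from 0) in male rats by diet group, with 1 point per rat and the mean ± SD of 4 rats beside the points. Pclo and Bsn scatter widely in every group, with Pclo from 815 to 2182 in FID, whereas Ppfia3 spans only 1454 to 1511 there.

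The calls among the scaffolds were counted beside those among all genes. In male FID against IS 0 of 9 scaffolds met the criterion, beside 4.62% of all genes tested, and 1 had an unadjusted p under 0.05. In male FIDch against IS 0 of 9 met it, beside 6.12% of all genes, and 0 had such a p. In male ISch against IS 2 of 9 met it, Pclo and Rims1, both higher, beside 8.06%. In male FIDch against FID the count was 0, beside 13.0%, and in the male iron by choline interaction 0, beside 14.4%, with 1 unadjusted p under 0.05 in each. DESeq2 and edgeR's likelihood ratio test also gave 0 in each of these 4 male comparisons with a count of 0. The medians of the 9 log2 fold changes were 0.09, 0.11, 0.17, 0.10 and -0.10 in this order, beside medians over all genes of -0.0097 to 0.010.

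In female FID against IS 0 of 9 scaffolds met the criterion, beside 6.47% of all genes, with 1 unadjusted p under 0.05. Rims1 alone met it in FIDch against IS, beside 8.98%, in ISch against IS, beside 10.3%, and in FIDch against FID, beside 12.7%. In the female iron by choline interaction the count was 0, beside 7.33%, with 0 unadjusted p under 0.05. DESeq2 and the likelihood ratio test gave 0 as well in both female comparisons with a count of 0. The medians of the 9 log2 fold changes were -0.01 for FID against IS, -0.21 for FIDch against IS, -0.05 for ISch against IS and -0.20 for FIDch against FID. In male minus female differences the criterion was met by 1 scaffold for FID against IS, beside 7.64% of all genes. It was met by 2 for FIDch against IS, beside 12.9%, and by 3 for ISch against IS, beside 14.2%. The last were Pclo at 0.55 ± 0.26, Bsn at 0.40 ± 0.19 and Rims1, all more positive in males. Those of Pclo and Bsn were lost without any 1 of several rats of either sex, at 0.40 to 0.55 and 0.30 to 0.43, and met the criterion in 6 and 5 of 16 such fits, whereas that of Rims1 was kept in each of 16. Without the libraries named in another form they were 0.28 and 0.15, and with the level of long mRNAs as a covariate 0.020 and 0.0097.

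**Figure D3:**
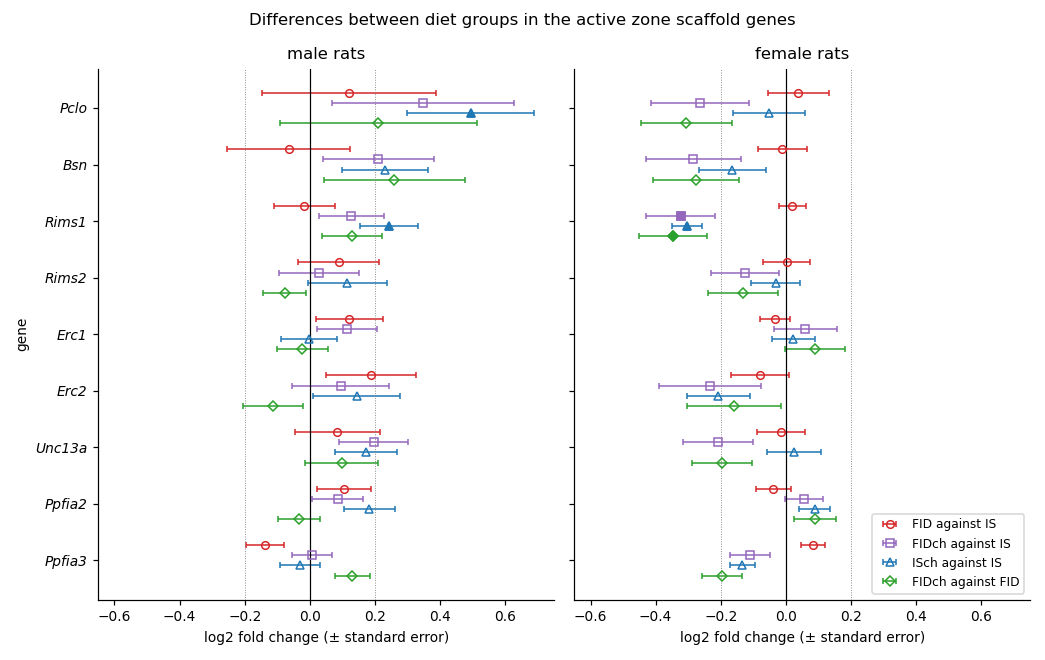
Log2 fold changes (horizontal axis) of the 9 scaffold genes between pairs of diet groups in male (left) and female (right) rats, with bars of 1 standard error. Filled symbols met the criterion and dotted lines mark a log2 fold change of 0.2 in either direction. Rims1 lies at -0.30, -0.32 and -0.35 in the 3 female comparisons with choline, and at 0.24 in male ISch against IS.

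Spread between rats of the same group set the scaffolds apart from each other. In males the within-group SD of Pclo was 0.53 on the log2 scale, larger than in 99.6% of 825 genes of like level, whose median was 0.088. For Bsn it was 0.37, larger than in 97.8% of 225 genes. Ppfia3 was at 0.067, below the median of 0.088 of its neighbours in level. In females the SDs were 0.24 for Pclo, 0.22 for Bsn, 0.14 for Rims1 and 0.072 for Ppfia3. Those of Pclo and Bsn were larger than in 97.4% and 98.5% of genes of like level. Erc2 also ranked high, above 96.0% of such genes in females and 91.2% in males, as did Unc13a, above 91.7% and 92.9%.

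The rats with high Pclo had high levels of other genes with long mRNAs. These were 20 genes picked as known for long mRNAs, among them Ank2, Dync1h1 and Kmt2a, and the lengths were not measured here. Over the 20, the mean log2 CPM correlated with Pclo at Pearson r = 0.98 and Spearman rho = 0.99 over the 16 males, each with a permutation p of 1e-05, the smallest that 100000 resamples give, and without the 2 rats farthest from the median r was 0.96. Over the 16 females r was 0.98 and rho 0.98 with the same p, and 0.97 without 2 rats. After Benjamini-Hochberg adjustment over the 9 genes of a sex, the permutation p for Pclo was at most 9e-05. Bsn gave r = 0.95 in males and 0.96 in females, and 0.96 and 0.87 without 2 rats. Other scaffolds followed it too. Unc13a gave r = 0.86 in males and 0.89 in females, and 0.75 and 0.67 without 2 rats. In females Erc2 gave 0.95 and Rims2 0.91, and 0.81 and 0.76 without 2 rats. Rims1 gave r = 0.88 in males, and 0.80 without 2 rats. In females its relation was weaker, at r = 0.75 (rho = 0.48, permutation p = 0.0599 for rho), and r fell to 0.42 without 2 rats. Ppfia3 gave r = 0.087 in males (permutation p = 0.744) and 0.60 in females, where r was 0.23 without 2 rats. Erc1 gave r = 0.67 in males and 0.58 in females, and 0.49 and 0.15 without 2 rats. Ppfia2 gave only 0.40 in males and 0.20 in females. In males Erc2 gave 0.51 and Rims2 0.40, and without 2 rats Erc2 rose to 0.87 while Rims2 was at 0.37. Thus, with the diet groups pooled, the female r of Rims1, Erc1 and Ppfia3 were much lower without the 2 rats. Within diet groups, with all rats kept, the female r with Pclo was 0.82 for Rims1, 0.82 for Erc1 and 0.65 for Ppfia3. Whether these genes followed the long mRNAs within diet groups was not tested.

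**Figure D4:**
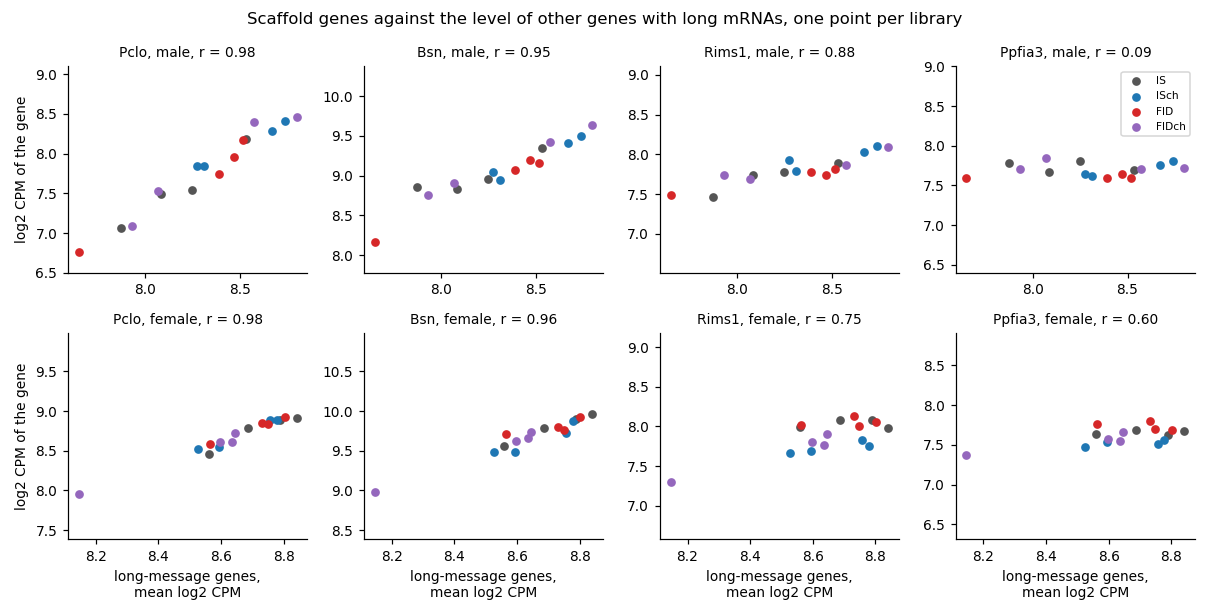
Level of 4 scaffold genes (log2 CPM, vertical axes of equal span) against the mean log2 CPM of 20 genes with long mRNAs (horizontal axes) in male (top) and female (bottom) libraries, 1 point per rat, coloured by diet. Pclo and Bsn follow the long mRNAs closely, with r of 0.95 to 0.98. In females most choline-exposed rats lie below the others in Rims1 at a like level of long mRNAs.

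The long-mRNA genes were also compared between the diet groups. Their mean log2 CPM was 8.19 ± 0.28 in male IS and 8.50 ± 0.24 in male ISch (SD, n = 4), and 9 of the 20 met the criterion in this comparison, all higher, beside 8.06% of all genes, with a median log2 fold change of 0.30. Of the 20, 0 had an adjusted p under 0.05 by edgeR's quasi-likelihood test, and 11 an unadjusted p under 0.05. ISch replicates 1 and 2, at 8.74 and 8.67, lay above every IS rat, whereas replicates 3 and 4, at 8.31 and 8.28, lay within the IS range of 7.87 to 8.53. Kmt2a, a histone methyltransferase gene, was at 0.57, Birc6, of the ubiquitin system, at 0.53, and Dync1h1, the dynein heavy chain gene, at 0.48. With this mean as a covariate, added after the relation had been seen, male ISch against IS gave 0.06 for Pclo and 0.07 for Rims1, and neither met the criterion. In females 1 of the 20, Ahnak, met the criterion in FID against IS, at -0.31, and in ISch against IS, at -0.35. In ISch against IS the Rims1 difference with the covariate was -0.29 (adjusted p = 0.011, edgeR's quasi-likelihood test). In FIDch against IS and FIDch against FID 5 of the 20 were lower at the criterion, beside 8.98% and 12.7% of all genes called, Kmt2a at -0.41 and -0.30 and Fat3 at -0.39 and -0.49 among them, with Ahnak at -0.42 in the former and Herc1 at -0.29 in the latter. FIDch replicate 4 had the lowest level of long mRNAs of all females, 8.15 log2 CPM. With the covariate Rims1 was at -0.16 and -0.17 in these 2 comparisons, under the fold change of the criterion. Whether RNA integrity or library preparation had a part in the spread of long mRNAs was not tested.

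Rims1 and Ppfia3 varied together in females, at r = 0.91 and rho = 0.86 over 16 rats (permutation p = 2e-05 for each, adjusted p = 0.00018 over 36 pairs for r), and r was 0.84 without the 2 farthest rats. In males the same pair gave r = 0.15 and rho = 0.12 (permutation p = 0.575 and 0.649). Of the 36 pairs of scaffolds, 32 were positive in males with a median r of 0.51, and 34 in females with a median of 0.61. The share of positive pairs among all genes was not computed, so these counts are not read as particular to the scaffolds. Without 2 rats some female r were lost, as in Bsn and Erc1 from 0.55 to -0.096, whereas Pclo and Bsn stayed at 0.89. The highest r in males was that of Pclo and Bsn, 0.94 (rho = 0.97, permutation p = 1e-05), and in females that of Bsn and Erc2, 0.96 (rho = 0.90, permutation p = 1e-05 for r). The lowest in both sexes was that of Ppfia2 and Ppfia3, -0.39 in males and -0.35 in females, with permutation p of 0.131 and 0.181. Within diet groups this pair gave r = -0.46 in males but 0.25 in females.

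**Figure D5:**
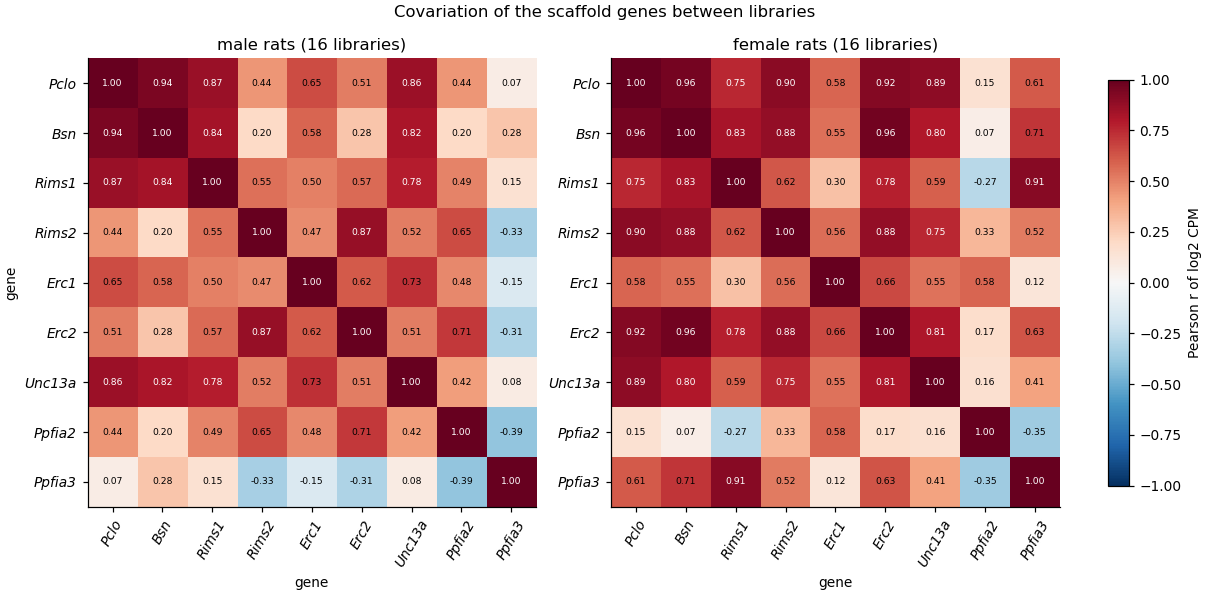
Pearson r of log2 CPM between each pair of the 9 scaffold genes over 16 male (left) and 16 female (right) libraries, red for positive and blue for negative. Pclo and Bsn are at 0.94 in males and 0.96 in females, and the pooled r of Ppfia2 with Ppfia3 is negative in both sexes.

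Among all genes, those most like Pclo over the 16 males were Ank3 (r = 0.99), Bptf (0.98) and Map1b (0.98), and those most like Bsn were Ubr4 (0.99), Lrp1 (0.98) and Prkag1 (0.98). Over the 16 females they were Scn8a (0.99), Nav1 (0.98) and Atp8a2 (0.98) for Pclo, and Aak1 (0.98), Ank2 (0.98) and Nav1 (0.98) for Bsn. Of these, Ank3, Map1b, Ubr4, Lrp1 and Ank2 belong to the list of long mRNAs.

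Other genes of the release machinery were counted in 3 lists, of 10 relatives of the scaffolds, 20 presynaptic partners and 12 postsynaptic scaffolds. Their counts are read beside the shares of all genes at the criterion. In female ISch against IS, with 10.3% of all genes called, 1 of the 10 relatives met the criterion. It was Rimbp2, which encodes a RIM-binding protein, and it rose by 0.30 ± 0.068 on the log2 scale (adjusted p = 0.0467 by edgeR's quasi-likelihood test), the opposite direction to Rims1. Of the 20 partners, 3 met it there, with Git1 at 0.28, Lin7c at 0.23 and Apba2 at -0.22, and of the 12 postsynaptic scaffolds 0 did. In female FIDch against FID, with 12.7% of all genes called, 2 of 10 relatives were lower at the criterion, Rims3 at -0.36 and Rims4 at -0.23, of the smaller RIM family members. Of the partners 4 of 20 were lower, with Rab3c at -0.54, Nrxn2 at -0.28 (adjusted p = 0.0269, edgeR's quasi-likelihood test) and Apba1 at -0.24. Of the postsynaptic scaffolds 3 of 12 were lower, Shank1 at -0.39, Dlgap3 at -0.27 and Dlgap4 at -0.21. FIDch replicate 4 had the lowest summed partners of the FIDch rats, 4216 CPM beside 4950 to 5065, and the lowest summed neuron markers, 9974 CPM beside 11350.0 to 11608, and its part in these counts was not tested. In female FIDch against IS, with 8.98% of all genes called, 1 relative, Unc13c at 0.28, and 1 partner, Rab3b at 0.30, were higher, and 0 postsynaptic scaffolds were called.

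In female FID against IS, with 6.47% of all genes called, 0 relatives, 0 partners and 2 postsynaptic scaffolds met the criterion, Shank1 at 0.30 and Dlgap3 at 0.20. In male FID against IS, with 4.62% called, 0 relatives, 2 partners, Rab3c at 0.37 and Lin7b at -0.27, and 1 postsynaptic scaffold, Dlgap3 at -0.21, met it. Dlgap3 thus had opposite signs in the sexes, as Ppfia3 did, with a male minus female difference of -0.40 ± 0.11 (adjusted p = 0.311, edgeR's quasi-likelihood test). In male ISch against IS, with 8.06% called, the called partners included Ptprd at 0.23 and Nrxn3 at 0.21, and the called postsynaptic scaffold was Shank2 at 0.35. In male FIDch against IS, with 6.12% called, Rims4 was at 0.30, Shank2 at 0.35 and Dlgap4 at 0.24, and in male FIDch against FID, with 13.0% called, Tspoap1, of the RIM-binding family, was at 0.23 and Lin7a at -0.49. In the male interaction, with 14.4% called, 6 partners and 3 postsynaptic scaffolds met the criterion. They were led by Lin7a at -0.72, Rab3c at -0.46 and Lin7b at 0.42 and by Dlg2 at -0.40, Dlgap3 at 0.33 and Begain at 0.23. Lin7a had only 7 to 24 raw counts per male library. Its adjusted p was 0.319 in the interaction and 0.280 in male FIDch against FID (edgeR's quasi-likelihood test). In the female interaction, with 7.33% called, 1 relative, 2 partners and 6 postsynaptic scaffolds met it, all negative. They were led by Rims3 at -0.55, by Git1 at -0.34 and Rph3a at -0.26, and by Shank1 at -0.45, Dlgap3 at -0.38 and Homer1 at -0.35.

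In the male minus female differences, the share of all genes called was 7.64% for FID, 12.9% for FIDch and 14.2% for ISch. The male minus female FID effect met the criterion in 0 relatives, 3 partners and 2 postsynaptic scaffolds, all lower in males. They were Lin7b at -0.38, Nrxn2 at -0.26 and Git1 at -0.22, with Dlgap3 and Shank1, the latter at -0.29. For FIDch 1 relative, Rims4 at 0.40, 3 partners, Rab3b at -0.45, Ptprf at 0.28 and Rph3a at 0.24, and 4 postsynaptic scaffolds met it, led by Shank2 at 0.61, Dlgap4 at 0.31 and Shank1 at 0.27. For ISch it was met by 0 relatives, by 7 partners, led by Git1 at -0.42 (adjusted p = 0.0331, edgeR's quasi-likelihood test), Ptprd at 0.40 and Nrxn3 at 0.37, and by 1 postsynaptic scaffold, Dlgap3 at -0.23. Of the long-mRNA genes, 0 met it for FID, 1 for FIDch, Ahnak at 0.63, and 7 for ISch, led by Birc6 at 0.63, Kmt2a at 0.58 and Ahnak at 0.53, all more positive in males. Over the 13 comparisons the median log2 fold change ran from -0.11 to 0.084 in the relatives, from -0.14 to 0.15 in the partners, from -0.24 to 0.21 in the postsynaptic scaffolds and from -0.25 to 0.37 in the long-mRNA genes.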

How the data were processed

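Hippocampal RNA of 32 rats, 4 per sex and diet, was measured by RNA-seq. Per the submitters' processing notes, reads were checked with FastQC, trimmed with Trimmomatic, aligned to Rnor 6.0 with HISAT2 and counted per gene with featureCounts of Subread. The authors deposited whole-number counts of 32883 genes for each sex, without normalization. Strand setting, treatment of reads with several matches and annotation version are not given in the sources used here. RefSeq GRCr8 lists other genes overlapping Rims1, Rims2, Erc1, Erc2, Ppfia2 and Ppfia3, so their counts may hold reads of these.

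The count analysis used edgeR 4.0.16 under R 4.3.3. Each comparison was fitted on its own libraries with filterByExpr, TMM and the quasi-likelihood test, and interactions were fitted in 1 model of 16 libraries. The adjusted p is that of Benjamini and Hochberg. Normalized counts are counts scaled to the geometric mean effective library size of a sex. Correlations used log2 CPM with a prior count of 0.5 and 100000 resamples. The fits of ISch against IS in each sex, of its male minus female difference and of the female interaction were tested on simulated data. Of genes simulated with a log2 difference of 0.3 in size, 30% to 63.3% met the criterion in the right direction. An adjusted p under 0.05 by edgeR's quasi-likelihood test was reached by 2% to 26.5% of them. Between 3515806 and 26616318 counts per library limit the precision of low genes most. The 48 pairs of replicates differed by more than sampling noise, at a chi-square per gene of 2.02 to 25.2.

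All 9 scaffolds are named, and of each further list up to 3 called genes per comparison, by size of log2 fold change. The result of 1 gene under this rule is not reported here. The members and lists were chosen with earlier results of these data known. The alternatives were RLE size factors, no filter beyond 1 count, DESeq2 1.42.0, the likelihood ratio test, the 4 groups of a sex in 1 fit, a replicate block, a call by adjusted p, each library left out, the 3 male libraries with names of another form left out, and the level of long mRNAs as a covariate, the last chosen after the data were seen. Replicate numbers did not pair the samples, since correlations of same-numbered samples passed 0.1 in 2 of 24 male and 1 of 24 female pairs.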

Additional observations from a re-analysis of the deposited data

Results flagged for a closer look

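In 72 groups of 4 rats, 8 for each scaffold, 5 groups held a rat apart from the other 3 by Dixon's criterion, and chance alone would mark about 1 in 20 groups. Bsn was lowest in male FID replicate 2, at 2158 normalized counts beside 4065 to 4437 in the other 3 rats. Ppfia3 was highest in male FID replicate 3, at 1511 beside 1454 to 1459.9, and in male FIDch replicate 1, at 1734 beside 1576 to 1586. Female FIDch replicate 4 was apart in Erc2, at 579.5 beside 955 to 992, and in Unc13a, at 3784 beside 4963 to 5187. Its level of long mRNAs was also the lowest of all females.

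In 6 cases a diet effect differed between males and females at the criterion by an edgeR interaction term, given here as male minus female on the log2 scale. These were 1 of 9 scaffolds for FID against IS, 2 for FIDch against IS and 3 for ISch against IS, beside 7.64%, 12.9% and 14.2% of all genes. The differences were -0.20 in Ppfia3 for FID against IS, 0.45 in Rims1 and 0.40 in Unc13a for FIDch against IS, and 0.55 in Pclo, 0.40 in Bsn and 0.55 in Rims1 for ISch against IS. Only the last passed the correction over all genes tested, with a Benjamini-Hochberg adjusted p of 0.0159. Those of Pclo and Bsn were kept in 6 and 5 of 16 fits with 1 library left out, and were 0.020 and 0.0097 with the level of long mRNAs as a covariate. Sex cannot be told apart from sequencing batch and RNA isolation kit here.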

How the results depend on the processing

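The female Rims1 difference between ISch and IS met the criterion in every alternative run, at -0.33 to -0.28. Its adjusted p was 0.0661 with a replicate block and 0.0795 with the 4 groups of the sex in 1 fit, so that 0 scaffolds had an adjusted p under 0.05 in these fits instead of 1, beside 2 by DESeq2 (Rims1 and Ppfia3). A replicate block also moved the counts of scaffolds at the criterion to 1 in the male interaction, 4 in female FIDch against FID and 1 in the male minus female ISch effect, and turned 2 values near 0, Erc1 in male ISch against IS to 0.0058 and Rims2 in female FID against IS to -0.00081. It changed no other call.

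In male ISch against IS the count at the criterion, 2, was 1 by DESeq2, 1 with the 4 groups in 1 fit, 1 without the libraries named in another form (Ppfia2 at 0.24, while Pclo and Rims1 lost theirs at 0.21 and 0.13), 0 with the long mRNAs as a covariate and 0 by adjusted p. Among all genes the number at the criterion in this comparison ran from 637 to 1606 over the alternative fits, beside 1125 in the main fit. In the male interaction the count of scaffolds was 1 over all genes with at least 1 count, 2 without the oddly named libraries and 1 with the covariate, instead of 0. In females, FIDch against IS gave 2 by DESeq2, 3 with the 4 groups in 1 fit and 0 by adjusted p, instead of 1. ISch against IS gave 2 by DESeq2, by the likelihood ratio test and over all genes with at least 1 count. FIDch against FID gave 3 in each of these 3 and 2 with the 4 groups in 1 fit, but 0 by adjusted p. The female interaction gave 1 with the covariate. Over the alternative fits the number of all genes at the criterion ran from 1209 to 1699 in female FIDch against IS. It ran from 1358 to 1864 in female ISch against IS and from 1835 to 2245 in female FIDch against FID. Scaffolds with an adjusted p under 0.05 numbered 1 by DESeq2, 1 by the likelihood ratio test and 2 with the 4 groups in 1 fit in female FIDch against FID. With the covariate they numbered 1 in that comparison (Erc1), 1 in female FIDch against IS (Erc1) and 1 in male FIDch against FID (Bsn). The male minus female counts were 0 over all genes with at least 1 count and 0 by adjusted p for FID against IS, 1 without the oddly named libraries, 1 with the covariate and 0 by adjusted p for FIDch against IS, and 1 in each of these 3 for ISch against IS, where 0 had an adjusted p under 0.05 without the oddly named libraries.

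With the covariate 25 log2 fold changes changed sign, and none of the 25 met the criterion either way. In male FID against IS it was Pclo -0.022. In male FIDch against IS it was Rims2 -0.011. In male ISch against IS these were Bsn -0.061, Rims2 -0.034 and Erc2 -0.059. In male iron by choline interaction these were Pclo 0.046, Erc1 0.069 and Unc13a 0.052. In female FID against IS it was Bsn 0.0042. In female FIDch against IS these were Pclo 0.032, Rims2 0.062 and Erc2 0.073. In female ISch against IS these were Pclo 0.042 and Rims2 0.019. In female FIDch against FID these were Rims2 0.069 and Erc2 0.12. In female iron by choline interaction these were Bsn 0.065, Rims1 0.055 and Rims2 0.033. In FID against IS (male minus female) it was Pclo -0.086. In FIDch against IS (male minus female) these were Rims2 -0.0072, Erc1 -0.11 and Ppfia2 -0.057. In ISch against IS (male minus female) these were Rims2 -0.058 and Unc13a -0.077. Other sign changes were Bsn in male ISch against IS without the oddly named libraries (-0.023) and Ppfia2 in the female iron by choline interaction by RLE size factors (-0.0013) and DESeq2 (-0.00120). The cause was not tested.

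With each library left out, the counts at the criterion ran from 0 to 2 in male FIDch against IS, 0 to 5 in male ISch against IS, 0 to 1 in the male interaction, 1 to 4, 1 to 3 and 1 to 5 in female FIDch against IS, ISch against IS and FIDch against FID, and 0 to 2, 1 to 4 and 1 to 4 in the male minus female FID, FIDch and ISch effects. Male ISch against IS was at 0 without IS replicate 1 and at 5 without IS replicate 3, female FIDch against IS at 4 without IS replicate 3, female ISch against IS at 3 without IS replicate 3 or ISch replicate 1, and female FIDch against FID at 5 without FIDch replicate 3. The number of all genes at the criterion moved too. In male ISch against IS it ran from 815 to 1811, highest also without IS replicate 3. In females it ran from 1108 to 1528 in FIDch against IS, 1278 to 2042 in ISch against IS and 1633 to 2065 in FIDch against FID. Scaffolds with an adjusted p under 0.05 ran from 0 to 1 in female FIDch against IS and 0 to 2 in FIDch against FID, both highest without FIDch replicate 4. 

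Log2 fold changes that crossed 0 with 1 library left out ran as follows, none of them at the criterion with all libraries. In male FID against IS these were Pclo -0.054 to 0.37, Rims2 -0.044 to 0.16, Unc13a -0.0051 to 0.20, Bsn -0.16 to 0.13 and Rims1 -0.093 to 0.051. In male FIDch against IS these were Rims2 -0.11 to 0.095, Erc2 -0.064 to 0.16 and Ppfia3 -0.032 to 0.028. In male ISch against IS these were Rims2 -0.021 to 0.19, Erc2 -0.011 to 0.22, Erc1 -0.076 to 0.073 and Ppfia3 -0.064 to 0.00083. In male FIDch against FID these were Pclo -0.013 to 0.43, Unc13a -0.013 to 0.17 and Erc1 -0.087 to 0.023. In male iron by choline interaction these were Erc1 -0.082 to 0.061, Unc13a -0.18 to 0.024 and Bsn -0.15 to 0.17. In female FID against IS these were Bsn -0.086 to 0.043, Unc13a -0.091 to 0.038, Pclo -0.054 to 0.11, Rims2 -0.047 to 0.066 and Rims1 -0.0067 to 0.038. In female ISch against IS these were Erc1 -0.027 to 0.078, Unc13a -0.047 to 0.081, Pclo -0.14 to 0.012 and Rims2 -0.10 to 0.011. In female iron by choline interaction these were Erc2 -0.025 to 0.20, Ppfia2 -0.031 to 0.051, Bsn -0.19 to 0.031, Rims1 -0.11 to 0.070 and Rims2 -0.16 to 0.00095. In FID against IS (male minus female) these were Pclo -0.096 to 0.33, Rims2 -0.051 to 0.16, Bsn -0.15 to 0.15 and Rims1 -0.12 to 0.043. In FIDch against IS (male minus female) these were Erc1 -0.046 to 0.12 and Ppfia2 -0.037 to 0.067. In ISch against IS (male minus female) it was Erc1 -0.10 to 0.047. The lower male depth widens the counting error of Rims2 and Erc2 most.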
